A study of Homo sapiens with 4 samples.

Results

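Stretches of RNA longer than 1000 bp that IGF2BP3 immunoprecipitation recovered as a single peak were collected from OE-19 cells. The peaks were chosen by their width, so that width and the values the peak caller gave with it are descriptions here and not findings. In all, 1484 of 87345 deposited peaks were wider than 1000 bp and are called wide peaks. Replicate 1 held 843 of them among 44622 peaks and replicate 2 held 641 among 42723, a mean of 742 ± 143 (SD, n = 2). They made up 1.89% of the replicate 1 list and 1.5% of the replicate 2 list, yet held 17.6% and 14.7% of the bases under peaks.

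The series comprised 4 samples of OE-19, an established line of adenocarcinoma of the esophagogastric junction grown in RPMI1640 with serum, with no further treatment in the labels. By RIP-seq, the sequencing of RNA that comes down with a protein on an antibody, 2 samples were pulled down with anti-IGF2BP3 and 2 were inputs without antibody. The labels describe UV fixation before lysis. The peaks of each RIP replicate were listed apart, and input values were not analysed here. The study calls its replicates biological, but the labels name no separate cultures, so the spread between them may be technical. With 2 replicates no test over samples was run.

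IGF2BP3 binds mRNA through KH and RRM domains and is known as a reader of N6-methyladenosine that stabilises its targets. It is common in fetal tissue and in many carcinomas. Most internal exons of human genes are short, and the long ones are few and hold coding sequence, such as the repeat exon of a mucin. Last exons are often long because they carry the 3′ UTR. Reads of spliced mRNA stop at exon borders when placed on the genome, so the exon is a convenient unit for describing a wide peak.

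The exons that wide peaks filled from border to border are shown first, because the ends of these peaks coincide with splice sites. The sequences below are from hg38, 60 bases centred on each end of the 4 longest internal exons that a peak covered end to end in both replicates, written 5′ to 3′ along the mRNA with exon bases in capitals and intron bases in lower case.
MUC17 exon 3, 5′ end (chr7:101031571-101031630, plus strand): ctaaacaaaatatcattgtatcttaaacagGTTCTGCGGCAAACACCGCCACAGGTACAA
MUC17 exon 3, 3′ end (chr7:101043790-101043849, plus strand): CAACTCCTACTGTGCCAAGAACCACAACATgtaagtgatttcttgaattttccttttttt
ZFHX3 exon 9, 5′ end (chr16:72798685-72798744, minus strand): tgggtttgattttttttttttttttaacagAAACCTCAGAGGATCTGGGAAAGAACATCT
ZFHX3 exon 9, 3′ end (chr16:72793225-72793284, minus strand): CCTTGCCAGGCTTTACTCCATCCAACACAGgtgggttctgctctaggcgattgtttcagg
QSER1 exon 4, 5′ end (chr11:32931713-32931772, plus strand): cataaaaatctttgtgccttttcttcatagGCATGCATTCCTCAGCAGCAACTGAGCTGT
QSER1 exon 4, 3′ end (chr11:32935406-32935465, plus strand): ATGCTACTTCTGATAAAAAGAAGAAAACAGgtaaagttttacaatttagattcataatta
NCOA6 exon 11, 5′ end (chr20:34743312-34743371, minus strand): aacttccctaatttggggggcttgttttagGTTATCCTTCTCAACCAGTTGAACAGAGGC
NCOA6 exon 11, 3′ end (chr20:34740333-34740392, minus strand): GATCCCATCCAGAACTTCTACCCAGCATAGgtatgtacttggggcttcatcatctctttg
Covered end to end means that the peak edges of both replicates lay within 50 nt of these borders, which is how the 4 exons were chosen.

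The widest peak lay on exon 3 of MUC17, a membrane mucin of gut epithelium whose extracellular part is a tandem repeat. A shift by 177 nt along this exon gave the same base at 76.8% of positions, against a median of 24.7% over all shifts from 30 to 399 nt. The unit that begins at the replicate 1 summit and its neighbour are shown to make the repeat visible, with capitals at the 149 of 177 bases (84.2%) that are equal in both.
MUC17 exon 3, unit starting at the replicate 1 summit (chr7:101037743-101037919, plus strand): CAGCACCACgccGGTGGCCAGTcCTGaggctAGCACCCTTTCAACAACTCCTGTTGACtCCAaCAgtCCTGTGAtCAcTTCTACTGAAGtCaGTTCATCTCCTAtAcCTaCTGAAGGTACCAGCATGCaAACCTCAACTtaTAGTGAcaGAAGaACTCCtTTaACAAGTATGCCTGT
MUC17 exon 3, next unit (chr7:101037920-101038096, plus strand): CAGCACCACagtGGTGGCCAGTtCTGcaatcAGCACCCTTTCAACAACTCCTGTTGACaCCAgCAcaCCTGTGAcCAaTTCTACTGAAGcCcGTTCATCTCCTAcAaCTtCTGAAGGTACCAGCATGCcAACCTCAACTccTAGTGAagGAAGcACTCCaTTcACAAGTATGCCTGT
A read from such an exon can resemble several places within it, but most words of 50 bases were unique there. In the MUC17 peak of each replicate, 10.0% of all 50-base words occurred more than once.

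The summit is the position of highest enrichment that the caller gave. In 6 pairs of peaks on internal exons covered end to end the summits of the replicates lay within 15 nt of each other. The shared windows of 101 nt of 5 pairs are shown as the places where the summits met, and that of POM121C, which has a near-identical paralog, is left out. Of the pairs shown, only KMT2C had a caller's q of at most 0.05 in both replicates. HIPK2 reached it in replicate 1 only (folds of 6.55 and 2.81). ATXN1 (3.6 and 6.28), NFATC3 (3.28 and 5.39) and MAML3 (3.96 and 5.89) reached it in replicate 2 only. Capitals mark DRACH, the consensus around N6-methyladenosine, in which D is A, G or T, R is A or G and H is A, C or T, read on the mRNA strand.
ATXN1 exon 7, summit window (chr6:16327167-16327267, minus strand): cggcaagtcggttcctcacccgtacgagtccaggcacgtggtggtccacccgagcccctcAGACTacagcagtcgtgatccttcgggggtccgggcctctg
NFATC3 exon 2, summit window (chr16:68122615-68122715, plus strand): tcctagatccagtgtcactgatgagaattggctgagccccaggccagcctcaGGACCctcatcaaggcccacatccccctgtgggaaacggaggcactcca
HIPK2 exon 2, summit window (chr7:139716625-139716725, minus strand): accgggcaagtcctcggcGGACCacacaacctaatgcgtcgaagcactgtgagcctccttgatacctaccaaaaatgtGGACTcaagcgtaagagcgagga
KMT2C exon 43, summit window (chr7:152162557-152162657, minus strand): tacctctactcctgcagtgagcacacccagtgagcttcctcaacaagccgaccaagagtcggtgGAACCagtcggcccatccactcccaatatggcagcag
MAML3 exon 2, summit window (chr4:139889527-139889627, minus strand): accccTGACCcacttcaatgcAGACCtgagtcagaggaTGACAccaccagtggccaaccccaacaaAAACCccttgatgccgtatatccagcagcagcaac
The MAML3 window held 4 DRACH matches, the HIPK2 window 2, both of them on GGAC, and the others shown 1 each. The POM121C window that was left out held 0 DRACH and 0 GGAC matches. Such matches are common: of windows of this length around CDS summits, 82.7% and 82.5% held DRACH in wide peaks of replicates 1 and 2 (n = 237 and 171), and 86.9% and 87.2% did in other peaks. GGAC was found in 30.8% and 39.2% of the wide peak windows and in 34.3% and 33.7% of the others, so that the replicates stood on opposite sides of the other peaks.

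Wide peaks ran from 1001 bp to 12248 bp in replicate 1 and to 12230 bp in replicate 2, with medians of 1461 and 1406 bp. Of the 843 and 641 peaks, 199 and 128 exceeded 2000 bp, 62 and 39 exceeded 3000 bp, and 8 and 6 exceeded 5000 bp. Their median fold enrichment, the caller's ratio of RIP signal to background at the summit, was 3.8 in replicate 1 and 3.63 in replicate 2, against 2.92 and 2.9 over all peaks. A q of at most 0.05 was given to 240 wide peaks (28.5%) in replicate 1 and to 129 (20.1%) in replicate 2, where the whole lists had 9.77% and 7.47%. A q of 1 was given to 227 wide peaks in each replicate, or 26.9% and 35.4%, so many wide peaks were weak by the caller's own measure. Both lists end near a −log10 p of 2 and set no limit on q. At the limit, the narrowest members were peaks of 1001 bp on SHANK2 and 1006 bp on DMXL1 in replicate 1, and of 1001 bp on LARP1 and 1002 bp on AP1S3 in replicate 2. Just outside lay NPAT at 999 bp and SSH1 at 1000 bp in replicate 1, and RRP1B at 998 bp and OR2A7 at 1000 bp in replicate 2. SSH1 and RRP1B illustrate how arbitrary the limit is, since the other replicate had a peak of 1588 bp and of 2341 bp there.

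Wide peaks lay in exons, and as a rule in a single exon. The summit was exonic in 804 of 843 peaks (95.4%) in replicate 1 and in 606 of 641 (94.5%) in replicate 2. All peaks had much the same shares, 95.7% and 96.1%. At least 90% of the bases lay in 1 exon in 777 (92.2%) and 589 (91.9%) peaks, a mean of 92.0% ± 0.2 (SD, n = 2), against 80.4% ± 1.17 (SD, n = 2) of all peaks. This difference from all peaks was larger than the spread between replicates although a narrow peak fits into an exon more easily. Peaks of over 500 and up to 1000 bp had 90.1% in replicate 1 and 92.1% in replicate 2. Wide peaks were above that class in replicate 1 and below it in replicate 2, so this share did not set them apart from it. All bases lay in 1 exon in 682 and 516 wide peaks. The host exons were long, as the width limit demands, with a median of 4111.5 and 4215 nt against 175 and 170 nt for all peaks on mRNAs.

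Of the 738 and 559 wide peaks with a summit on exactly 1 canonical mRNA, 612 and 454 were in a last exon, 118 and 95 in an internal exon, 6 and 7 in a first exon, and 2 and 3 in an mRNA of 1 exon. Peaks in internal and last exons differed in how they filled the exon. In internal exons the median peak covered 95.4% of the exon in replicate 1 and 92.1% in replicate 2, and both edges lay within 50 nt of the exon borders in 49 peaks (41.5%) and 33 peaks (34.7%). In last exons the median peak covered 36.7% and 32.8% of the exon, and both edges met the borders in 21 peaks (3.43%) and 18 peaks (3.96%). The replicate values did not overlap between these exon classes. Last exons are longer, with a median of 4412 and 4540 nt against 1874.5 and 1897 nt for the internal host exons, so the same width fills less of them. Within last exons the peaks met the 5′ border, the last splice site, more often than the 3′ border, the end of the transcript. The peak edge lay within 50 nt of the 5′ border in 199 (32.5%) and 135 (29.7%) peaks, and within 50 nt of the 3′ end in 44 (7.19%) and 37 (8.15%).

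**Figure D1:**
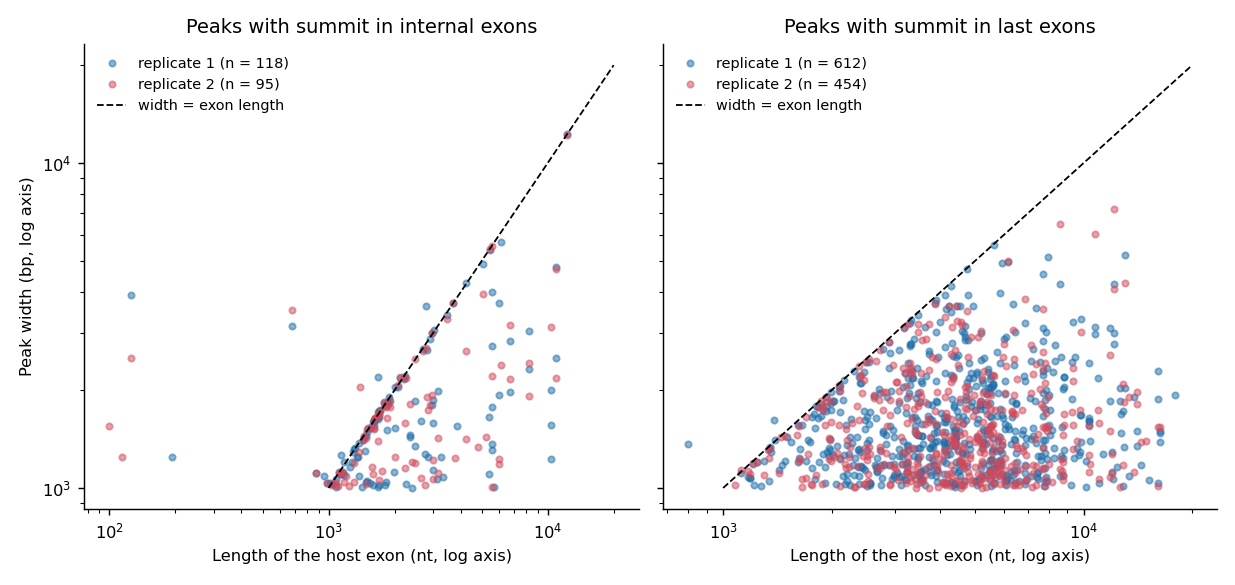
Each point is a wide peak, with the length of its host exon in nt on the x axis and its width in bp on the y axis, both logarithmic, for internal exons (left) and last exons (right) and with replicates in different colours. Internal exon peaks gather along the dashed line where width equals exon length, at a median of 95.4% and 92.1% of the exon, whereas last exon peaks spread below it at 36.7% and 32.8%.

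In 33 exons of 30 genes a peak met both borders within 50 nt in both replicates. Of these exons 26 were internal and 7 were last exons, and they ran from 979 nt in ATXN7 to 12219 nt in MUC17. The closeness of their edges follows from this choice. Summits had no part in it, and the median distance between the summits of the replicates was 259 nt. The MUC17 peaks covered chr7:101031591-101043838 in replicate 1 and chr7:101031590-101043819 in replicate 2, with folds of 7.09 and 6.59 and q of 1.94e-05 and 3.39e-06. Both were well above the median wide peak, and the summits were 968 nt apart. Exon 9 of ZFHX3, a zinc finger homeobox transcription factor, had peaks of 5413 and 5435 bp with folds of 3.38 and 5.51. The caller's q was 1.0 in replicate 1 and 0.00469 in replicate 2, so only replicate 2 passed 0.05, and the summits were 3225 nt apart. Exon 4 of QSER1, a glutamine- and serine-rich nuclear protein, had peaks of 3709 and 3708 bp and folds of 3.49 and 4.13. The caller's q was 0.144 and 0.044, and the summits were 313 nt apart.

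Values of further exons among the 33 are given as examples. In NCOA6, a coactivator of nuclear receptors, exon 11 (2979 nt) had folds of 6.27 and 3.69 and exon 9 (1117 nt) folds of 3.35 and 2.7. Replicate 1 was the higher in both exons. In KMT2C, a histone H3 lysine methyltransferase, exon 43 (1710 nt) had folds of 5.94 and 5.18 with summits 5 nt apart, and exon 36 (1884 nt) folds of 6.72 and 3.42 with summits 72 nt apart. Its relative KMT2D had folds of 5.6 and 4.88 on exon 35 (1865 nt) and of 5.25 and 2.44 on exon 49 (1141 nt). MAML2 and MAML3, Notch coactivators, were covered on exon 2, with folds of 4.68 and 7.13 and of 3.96 and 5.89. Here replicate 2 was the higher. TAB2 and TAB3, adaptor proteins of the kinase TAK1, were also both covered, TAB2 on exon 3 with folds of 2.77 and 4.87 and TAB3 on exon 6 with folds of 6.53 and 5.51. JMJD1C, a jumonji-domain chromatin protein, had folds of 6.82 and 2.54 on exon 10, and the replicates were far apart. A q of at most 0.05 was given in both replicates to KMT2C exon 43, KMT2D exon 35, MAML2 and TAB3. Only replicate 1 reached it in NCOA6 exon 11, KMT2C exon 36, KMT2D exon 49 and JMJD1C. Only replicate 2 reached it in MAML3 and TAB2, and neither replicate did in NCOA6 exon 9.

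The highest mean fold among the 33 exons was that of R3HDM2, which carries an R3H domain for binding nucleic acid. Its last exon of 1350 nt had peaks of 1338 and 1331 bp with folds of 8.77 and 7.55, q of 2.25e-08 and 1.06e-05, and summits 1 nt apart. The fold of 8.77 was the highest of any wide peak in replicate 1. In replicate 2 the highest was 10.1, at a peak of 1829 bp between genes (chr2:110285633-110287461) with a q of 4.08e-09, which met no wide peak of replicate 1 and was covered over 28.3% of its bases. PROSER1, exon 11 (1786 nt), followed among the shorter exons with folds of 7.09 and 6.44 and summits 554 nt apart. Exon 13 of POM121C, a nucleoporin, had folds of 4.82 and 6.59 and summits 2 nt apart. Its paralog POM121 is nearly identical, so the assignment of reads between these genes is uncertain.

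**Figure D2:**
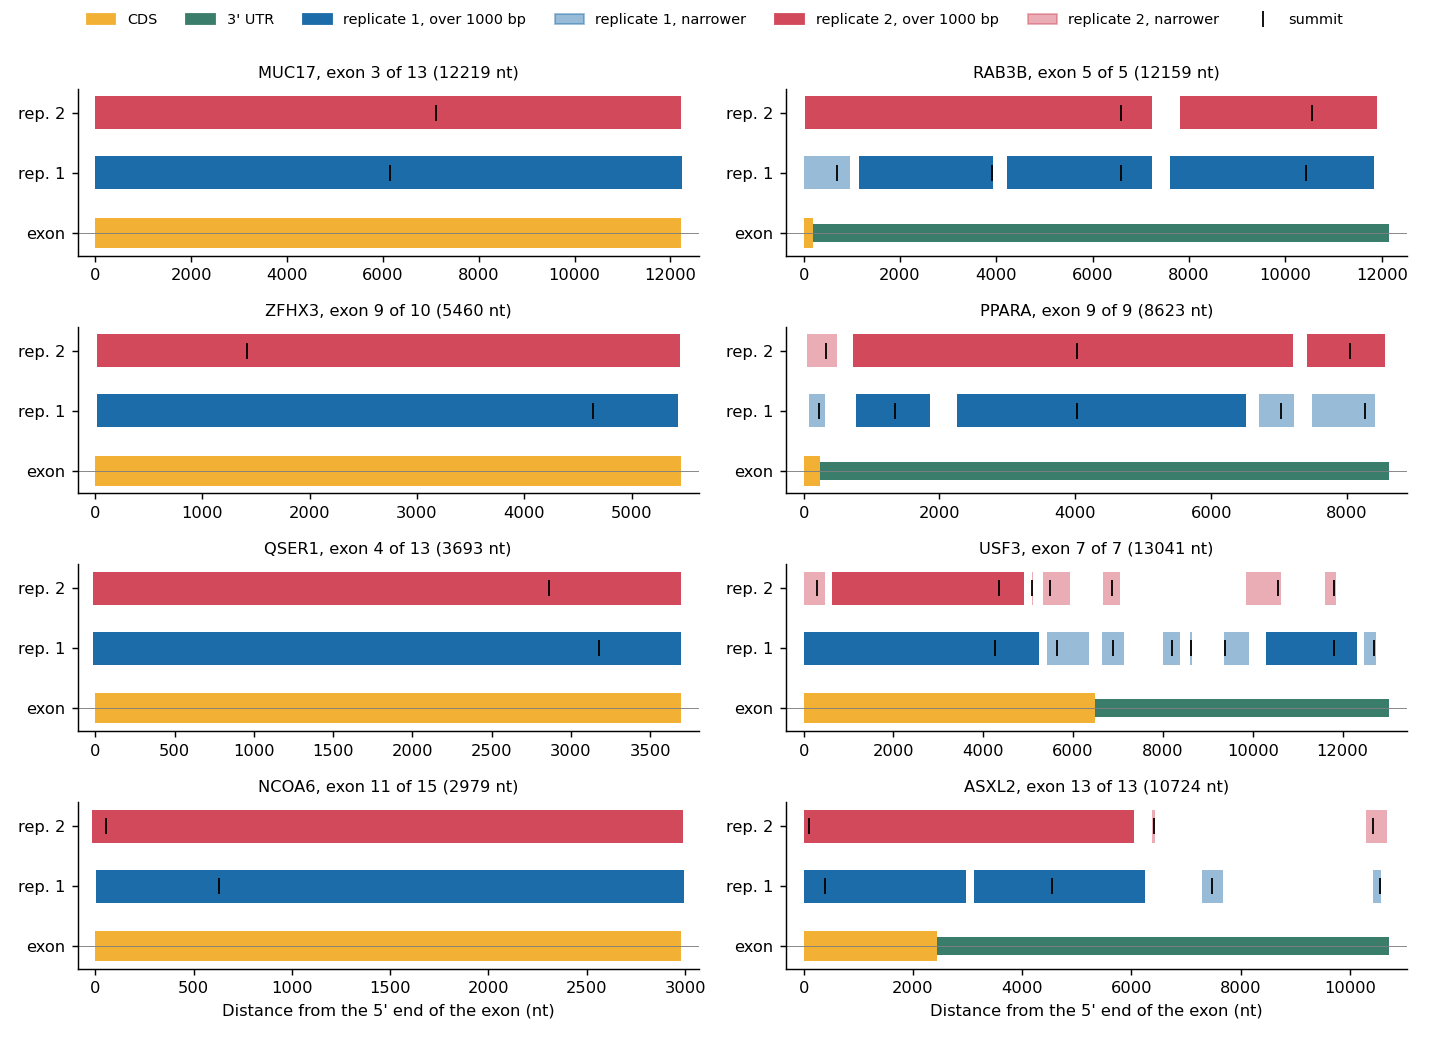
Peaks of replicate 1 and replicate 2 over 8 exons, with the distance from the 5′ end of the exon in nt on the x axis, the exon drawn at the bottom of each panel with CDS and 3′ UTR in different colours, and black ticks at summits. The 4 internal exons on the left (MUC17, ZFHX3, QSER1, NCOA6) are filled by 1 peak per replicate, whereas on the last exons of RAB3B, PPARA, USF3 and ASXL2 the replicates divide the exon into different numbers of peaks.

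Peaks were also wide on some of the longest last exons, and there the replicates cut the signal differently. RAB3B, a small GTPase of vesicle traffic, has a last exon of 12159 nt. Replicate 1 had wide peaks of 4251, 3008 and 2777 bp on it, and replicate 2 had wide peaks of 7203 and 4083 bp. Only those of 3008 and 2777 bp had a q of at most 0.05. The replicate 1 peaks of 3008 and 2777 bp were both contained in the 7203 bp peak of replicate 2, whose summit was 2 nt from that of the 3008 bp peak. On the last exon of PPARA, the nuclear receptor of fatty acid breakdown, replicate 1 had wide peaks of 4249 and 1087 bp and replicate 2 of 6486 and 1144 bp. The summits of the widest PPARA peaks were 1 nt apart, at folds of 5.66 and 5.14. ARRB1, a beta-arrestin, had a peak of 4954 bp in replicate 1 and of 4978 bp in replicate 2 on its last exon of 6153 nt, wholly in the 3′ UTR, at folds of 3.52 and 3.26. These summits also lay on exons of unnamed genes within the same region (ENSG00000279117 in both replicates). USF3, a helix-loop-helix transcription factor, had its widest peaks, 5225 and 4258 bp, in the coding part of a last exon of 13041 nt. In ASXL2, a polycomb-associated protein, replicate 1 peaks of 3127 and 2972 bp met a replicate 2 peak of 6041 bp that crossed the stop codon. The folds there were low, 2.93 and 2.39 in replicate 1 and 3.51 in replicate 2. None of the ARRB1, USF3 and ASXL2 peaks given here had a q of at most 0.05, whereas all the PPARA peaks did.

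Internal exons could be divided in the same way. Exon 4 of HIVEP3, a zinc finger transcription factor, held peaks of 4017 and 1368 bp in replicate 1 and 1 peak of 5563 bp in replicate 2, which filled 99.7% of its 5582 nt. The HIVEP3 peaks of replicate 1 had a q of at most 0.05, and that of replicate 2 did not. Exon 31 of the secreted gel-forming mucin MUC5B, 10893 nt long, had peaks of 4800 and 2513 bp in replicate 1 and of 4731 and 2183 bp in replicate 2. The wider pair had folds of only 2.18 and 2.05 with a q of 1 in both replicates. It recurred closely all the same, with summits 2 nt apart and 98.5% of the replicate 1 bases covered in replicate 2. The neighbouring mucin MUC5AC had wide peaks of 2001, 1563 and 1229 bp in replicate 1 and 1 of 3123 bp in replicate 2 on its exon 31. CYP3A5, a cytochrome P450 of drug metabolism, differed from the other genes with the widest peaks. Its peaks of 6482 and 4725 bp were exonic over only 28.2% and 28.7% of their bases, with summits 114 nt apart and folds of 5.26 and 4.08.

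The genes with the most wide peaks were C6orf132 with 5 in replicate 1 and 2 in replicate 2, KMT2D and the kinase WNK1 with 4 and 3 each, and ATXN1L and KMT2A with 3 and 3 each. KMT2C and ZFHX3 tied with the latter at 3 and 3. In WNK1 the first exon carried peaks of 1684 and 1536 bp whose summits were 2 nt apart, at folds of 5.07 and 2.32, and exon 19 carried peaks of 1409 and 1402 bp at folds of 6.12 and 5.8. The 3 replicate 2 peaks of ATXN1L, a relative of ataxin, all lay on its last exon of 7705 nt, and each met a replicate 1 wide peak that was wider. In KMT2A exon 27 (4249 nt) replicate 1 had 1 peak of 4268 bp, while replicate 2 had peaks of 2631 and 1413 bp. The highest points of both replicates were 1 nt apart, at folds of 2.22 and 4.48. None of these KMT2A peaks had a q of at most 0.05.

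Wide peaks covered the 3′ UTR more than the CDS. Of their mRNA bases, 69.7% and 69.8% were 3′ UTR, 30.1% and 29.9% were CDS, and 0.28% and 0.314% were 5′ UTR. Over all peaks the CDS share was 58.8% ± 2.06, and over peaks of up to 250 bp it was 80.0% ± 1.13 (SD, n = 2 each). These differences exceeded the spread between replicates. They also followed the exons that can hold a wide peak. In exons over 1000 nt of the same mRNAs, CDS made up 21.4% ± 0.566 and 3′ UTR 77.5% ± 0.707 of the bases, and over the whole mRNAs CDS made up 39.0% ± 0.354 (SD, n = 2 each). Against the long exons of the same mRNAs, wide peaks thus held more CDS in both replicates, although they held less than the other peaks. The stop codon lay inside 232 (31.4%) and 154 (27.5%) of the wide peaks on mRNAs, against 4.56% and 4.01% of all peaks, which are too narrow to meet it often. Among peaks with summits in last exons, 357 (58.3%) and 291 (64.1%) held 3′ UTR only, 228 and 148 crossed the stop codon, and 27 and 15 held CDS only.

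**Figure D3:**
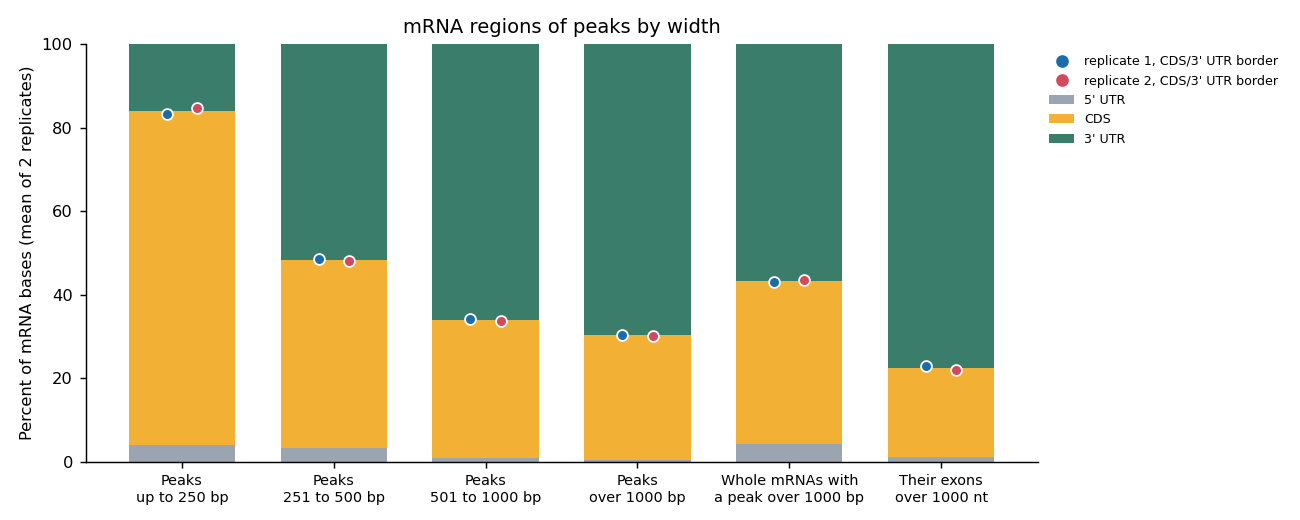
Stacked bars give the share of mRNA bases in 5′ UTR, CDS and 3′ UTR (percent, mean of 2 replicates) for peaks of 4 width classes, for the whole mRNAs that carry a wide peak and for their exons over 1000 nt, and points mark the border of CDS and 3′ UTR in each replicate. The CDS share falls from 80.0% in peaks of up to 250 bp to 30.1% and 29.9% in wide peaks, and lies between the 39.0% of whole mRNAs and the 21.4% of their long exons.

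Most long exons of bound mRNAs carried no wide peak. Among the 5128 mRNAs with a summit in both replicates, 598 internal and 4275 last exons were longer than 1000 nt. A wide peak overlapped at least 500 nt of 17.7% and 14.0% of the internal exons (replicates 1 and 2) and of 12.4% and 9.4% of the last exons. The share rose with exon length, which is partly fixed by the rule, since an exon of little over 1000 nt can hold a wide peak only if nearly all of it is covered. In internal exons it was 14.5% and 11.1% at 1001 to 2000 nt and 35.3% and 35.3% above 6000 nt, where n was 17. In last exons it was 4.49% and 3.49% at 1001 to 2000 nt and 24.0% and 15.7% above 6000 nt. Internal exons stood above last exons of the same length in each length class and in both replicates. At 4001 to 6000 nt, for example, the shares were 27.3% and 24.2% against 18.8% and 16.9%.

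**Figure D4:**
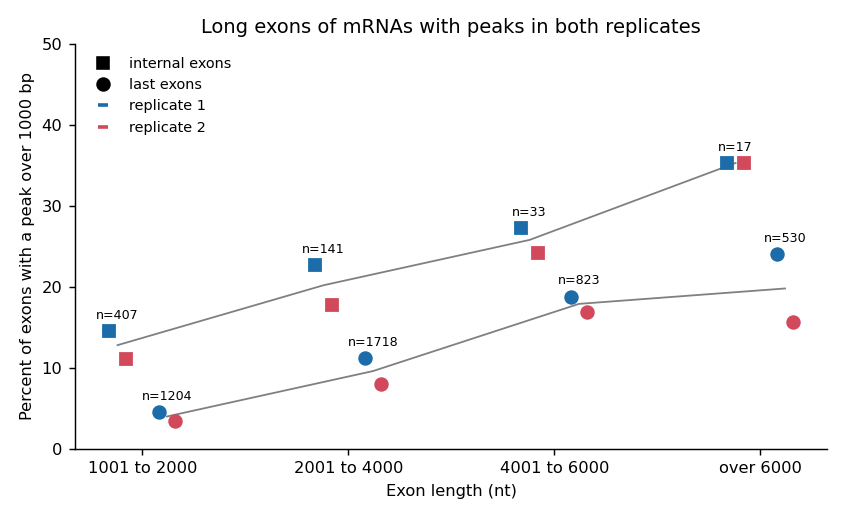
Percent of long exons that carry a wide peak (y axis) by exon length in nt (x axis), for internal exons (squares) and last exons (circles) of mRNAs with summits in both replicates, with 1 point per replicate, a grey line through the means and the number of exons beside each class. The share rises from a mean of 12.8% to 35.3% in internal exons and from 3.99% to 19.8% in last exons.

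Recurrence was examined in the replicate that had not been used to choose a peak. Of the wide peaks, 98.0% in replicate 1 and 99.5% in replicate 2 overlapped some peak of the other replicate by at least 1 bp, against 60.2% and 64.2% of all peaks. Overlap by 1 bp is easier for a wide peak, so the share of bases covered is the more even measure. It was 73.5% and 83.8% in wide peaks, a mean of 78.6% ± 7.33, and 56.8% ± 5.34 over all peaks (SD, n = 2 each). When only peaks with a q of at most 0.05 were counted in the other replicate, 15.8% and 28.9% of the bases of wide peaks were covered. The summit lay in a peak of the other replicate for 87.4% ± 3.76 of wide peaks, against 51.0% ± 2.99 of all (SD, n = 2 each). Both measures rose from class to class of width in each replicate. Only part of the wide peaks met another wide peak, 449 (53.3%) in replicate 1 and 447 (69.7%) in replicate 2, a mean of 61.5% ± 11.6 (SD, n = 2).

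**Figure D5:**
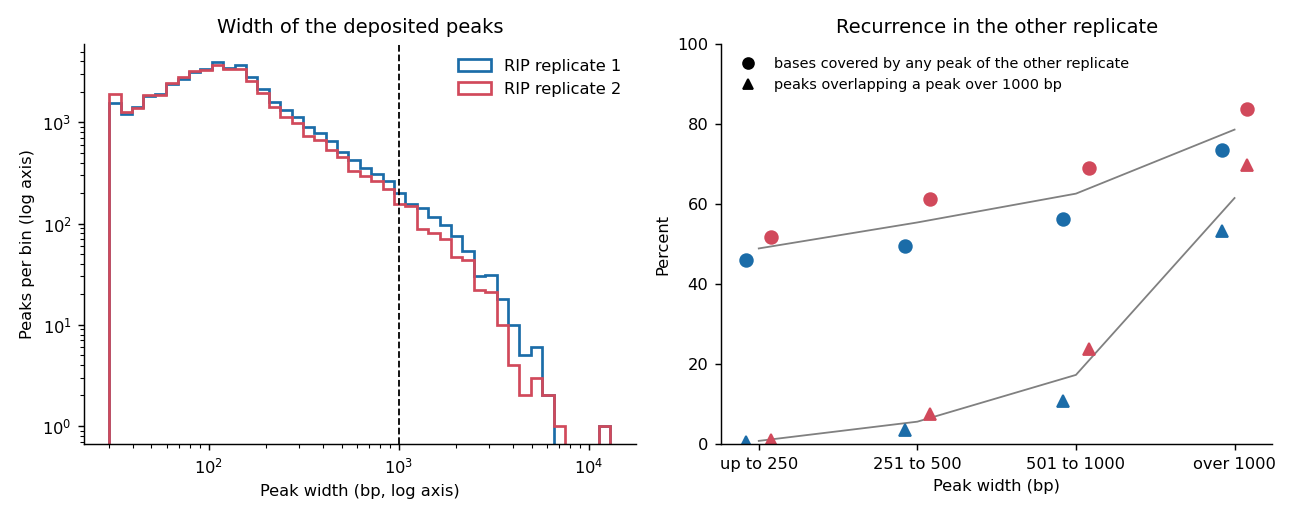
Left, number of peaks per bin against peak width in bp, both on log axes, with a dashed line at 1000 bp. Right, percent of bases covered by peaks of the other replicate (circles) and percent of peaks that overlap a wide peak of the other replicate (triangles) by width class, with 1 point per replicate and a grey line through the means. Covered bases rise from 48.9% in the narrowest class to 78.6% in wide peaks.

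In 431 pairs, each peak was the other's best wide partner. The median pair differed by 123 bp at the start, 128 bp at the end and 183 bp at the summit, and shared 77.5% of the wider peak. Borders recurred best in internal exons. There the 73 pairs differed by a median of 25 bp at the start and 28 bp at the end and shared 95.1% of the wider peak. In the 298 pairs of last exons the values were 172 bp, 149 bp and 74.1%. Internal exons have a splice site at both ends, where reads of spliced mRNA stop in either replicate. The part of these fixed ends in the closeness of the borders was not tested. The summits did not follow the borders, at a median difference of 169 bp in both kinds of exon. In 127 pairs (29.5%) the summits were within 50 bp, and in 53 pairs they were over 1000 bp apart. Across the 431 pairs, which share libraries and are not independent, widths correlated with a Pearson's r of 0.619 (log2) and a Spearman's rho of 0.546, and folds with 0.287 and 0.274. The replicate 1 peak was the wider in 276 pairs and the replicate 2 peak in 154.

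Another 377 wide peaks of replicate 1 and 191 of replicate 2 met only narrower peaks. The median such peak met 2 peaks, of which the widest measured 594 bp in replicate 2 and 613 bp in replicate 1, and 53.9% and 57.7% of the bases were covered. Where a wide partner existed, 86.8% and 92.8% were covered. No peak of the other replicate was met by 17 wide peaks of replicate 1 and 3 of replicate 2. The widest of these in replicate 1 were on the 3′ UTRs of ALDH6A1 (1854 bp, fold 4.06), SNX33 (1736 bp, fold 3.91) and GPATCH2L (1479 bp, fold 3.17). In replicate 2 they were a peak of 1476 bp between genes at chrX:155353402-155354877 (fold 3.3), a peak of 1396 bp at chr3:116644507-116645902 in an intron of LSAMP (fold 4.56) and a peak of 1338 bp on the 3′ UTR of PLEKHH1 (fold 2.86). Of the 6 peaks, the intronic peak had the lowest q, 0.00424. A narrower unmatched peak of replicate 1, 1075 bp at chr3:112183503-112184577 in an intron of SLC9C1, had a fold of 8.24 and a q of 3.09e-10, the lowest of any wide peak in that replicate. It was chosen after its values were seen.

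Wide peaks with exonic summits fell on 691 genes in replicate 1 and 531 in replicate 2. The genes with a wide peak in both lists numbered 392, which is 56.7% of the replicate 1 genes, 73.8% of the replicate 2 genes and 6.18% of the 6345 genes with an exonic summit in both. Of the 392 genes, 365 were protein-coding and 21 were lncRNAs. With a width limit of 750 bp the number was 633, and with 1500 bp it was 186. Among 52 genes known for a very long coding exon, 42 had an exonic summit in both replicates and 12 of these (28.6%) had a wide peak in both, against the 6.18% of all such genes. This list was drawn up with earlier results of these data known, and the exon length that defines it is a condition for a wide peak. Its members with wide peaks included the mucins MUC5AC and MUC5B, the methyltransferases KMT2A, KMT2C and KMT2D, ZFHX3, ASXL2, RESF1, SRRM2, TET2, ANKRD11 and APC. TET2, an enzyme that oxidises methylcytosine, had peaks of 3398 and 3319 bp on an exon of 3455 nt at folds of 5.69 and 6.1, with q of 0.000948 and 0.000897. RESF1, a factor of retroelement silencing, had peaks of 4899 and 3954 bp with summits 6 nt apart at folds of 3.79 and 3.98. SRRM2, a scaffold of nuclear speckles, had 2 wide peaks per replicate on an exon of 6701 nt, and the APC peaks, 1538 and 1131 bp on the last exon, did not overlap each other. A long coding exon was not enough for a wide peak. The widest peaks of BRCA2 measured 509 and 415 bp, those of MKI67 709 and 490 bp and those of MACF1 241 and 313 bp.

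Among 13 proteins of silencing and mRNA decay, 12 had exonic summits in both replicates and 3 had wide peaks in both, where 6.18% of all such genes did. They were the argonaute AGO2, its partner TNRC6B and the exonuclease XRN1, with widest peaks of 1287 and 1273 bp, 1339 and 1833 bp, and 1151 and 1375 bp. All of these peaks lay on 3′ UTRs, and none of them had a q of at most 0.05. The AGO2 peaks of 1287 and 1273 bp did not overlap each other. A narrower wide peak of AGO2 in replicate 1, of 1118 bp, met the 1273 bp peak of replicate 2. AGO1 had a wide peak in 1 replicate. Of 516 genes named ZNF, 169 had exonic summits in both replicates and 14 (8.28%) had wide peaks in both, close to the 6.18% of all genes. Of the 12 genes of the ERBB2 amplicon, 3 had an exonic summit in both replicates and 0 had a wide peak in both, and MED1 had one in replicate 1 (1404 bp, against 993 bp in replicate 2). Of 11 IGF2BP family members and classical targets, 6 had an exonic summit in both and 0 had a wide peak in both. With so few genes, nothing is read from these counts beside the 6.18% of all such genes. The widest peaks of MDM2, the ubiquitin ligase of p53, measured 1123 and 410 bp. Of 14 abundant noncoding RNAs, 2 had exonic summits in both and 0 had a wide peak. Among markers of cell types, exonic peaks were found on 1 of 6 epithelial markers in each replicate, on 0 of 3 blood markers, on 0 and 2 of 3 stromal markers and on 0 of 2 endothelial markers. A peak marks RNA recovered over the caller's background and not the level of a transcript, so the labelled cell line could not be checked in this way.

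Several noncoding genes carried wide peaks in both replicates. UCA1, a lncRNA studied in carcinomas, had peaks of 1571 and 1727 bp at folds of 4.47 and 5.1. BCAR3-AS1 had widest peaks of 3614 and 1696 bp, of which 21.1% and 54.6% were exonic, and LINC01559 had peaks of 1204 and 1490 bp. KRT8P46, a processed pseudogene of keratin 8, had peaks of 1773 and 2333 bp at folds of 5.59 and 3.49, and its resemblance to KRT8 makes the assignment uncertain. The lists carry no strand, so an antisense gene cannot be told from its partner. This holds for RNF157-AS1, with peaks of 2821 and 2809 bp on exons shared with RNF157, for AFAP1-AS1, with peaks of 1625 and 1402 bp shared with AFAP1, and for BCAR3-AS1, which overlaps BCAR3. Of the exonic summits of wide peaks, 6.09% and 5.78% lay on exons of several genes.

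Outside exons, 27 and 22 wide peaks had their summits in introns and 12 and 13 between genes. The intronic share was 3.2% and 3.43%, near the 3.2% and 2.91% of all peaks. Between genes the share was 1.42% and 2.03%, against 1.07% and 0.967% of all peaks. Of the intronic ones, 13 and 16 met a wide peak of the other replicate, and 26 and 21 met any peak. An intron of PSMB7, which encodes a proteasome subunit, held neighbouring peaks of 2662 and 2127 bp in replicate 1 and of 2660 and 2233 bp in replicate 2. The first pair, at chr9:124354091-124356752 in replicate 1, differed in fold (5.14 and 2.93), and the neighbouring pair less so (6.29 and 6.45). Both pairs contained no exonic base. They begin shortly past the annotated end of NEK6 (chr9:124353307, plus strand), which had wide peaks of 1523 and 1330 bp in replicates 1 and 2. Without strand in the lists, the gene these pairs come from is uncertain. In introns of HMBOX1, a homeobox gene, and of VOPP1 the widest pairs measured 2696 and 2679 bp and 2268 and 2170 bp. The widest intronic peak, 5562 bp in replicate 1 at chrX:155480734-155486295 in TMLHE-AS1, was divided among 12 peaks of replicate 2, which covered 50.3% of it.

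The base composition of wide peaks was a property the width limit did not use. In 3′ UTRs, wide peaks contained 46.4% ± 0.152 G and C, whereas the stretches of the same exons outside all peaks contained 38.9% ± 0.408 (SD, n = 2 each). Other peaks had 45.4% ± 0.0761 (SD, n = 2) in 3′ UTRs. GGAC, the core of the methylation consensus, occurred 2.87 ± 0.0227 times per kb in wide peaks and 1.98 ± 0.028 times outside peaks in the same 3′ UTR exons (SD, n = 2 each). Other peaks had 2.96 ± 0.0349 (SD, n = 2). DRACH occurred 19.1 ± 0.143 times per kb in wide peaks and 17.4 ± 0.127 times outside (SD, n = 2 each). Thus wide and other peaks resembled each other more than either resembled the uncovered 3′ UTR, in both replicates. The replicates cover much of the same genome sequence, so the spread between them is small by construction. It is therefore no measure of error for these differences. GGAC itself is rich in G and C, and the part of base composition in these motif counts was not tested.

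In CDS, wide peaks contained 52.7% ± 0.57 G and C against 49.0% ± 0.486 outside peaks in the same exons (SD, n = 2 each). GGAC occurred 3.97 ± 0.0483 times per kb in wide peaks and 4.0 ± 0.408 times outside (SD, n = 2 each), a difference within the spread between replicates. In other peaks it occurred 4.23 ± 0.0428 times (SD, n = 2), more than in wide peaks in both replicates. DRACH occurred 21.0 ± 0.0328 times per kb in wide peaks and 20.5 ± 0.115 times outside (SD, n = 2 each), more in wide peaks in both replicates. TGGAC occurred 1.16 ± 0.0138 times per kb in wide peaks and 1.52 ± 0.0082 times in other peaks (SD, n = 2 each), fewer in both replicates. Outside peaks in the same exons it occurred 1.47 ± 0.221 times, with 80880 and 46192 bases to count in. Motifs were counted on the mRNA strand and overlapping matches were included, so a GGAC may also be part of a TGGAC or DRACH match.

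Repeats within peaks were rare. No 50-base word occurred more than once in 821 of 843 wide peaks of replicate 1 and 621 of 641 of replicate 2, and more than 10% of the words did so in 5 and 9 peaks. The highest shares were those of NPIPB5 (61.1% and 67.4%) and of NPIPB12 in replicate 1 (58.9%), members of a family of near-identical copies on chromosome 16, where the gene assignment is uncertain. A replicate 2 peak of 1093 bp at chr16:2833052-2834144, in an intron of ZG16B, had 50.3%. MUC5B had 32.6% and 33.0% in its widest peaks. The G and C content of single wide peaks ran from 30.9% to 71.4% in replicate 1 and from 31.5% to 75.8% in replicate 2, with medians of 47.9% and 47.8%.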

How the data were processed

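RIP-seq was done on 2 IGF2BP3 RIP samples and 2 inputs of OE-19 cells, and only the RIP peak lists were used. According to the study's methods, the authors mapped paired-end reads to hg38 with Tophat2 and called peaks with MACS2 at default settings. The deposited files hold 1 list for each RIP sample. The submitters' processing notes name fastp, HISAT2 and MACS2, without versions and with hg38. The aligner is therefore given differently in these sources, and the control library given to MACS2 is not given in the sources used here. The deposited fold is the ratio of RIP signal to background at each summit. MACS2 also gave the deposited −log10 p and q values there, and the deposited score was not used. The smallest deposited −log10 p was 2.0003 and 2.00226. Both lists thus look cut on the uncorrected p, near a −log10 of 2, although MACS2 limits q by default, and they hold peaks with a q of 1. Read depth is unknown, so intervals for counting error were not given.

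Width is the end minus the start as deposited, and positions are written from 1. Genes, exons and the canonical coding transcripts (20033) are those of GENCODE 44. Peaks were assigned to genes with an exon at the summit. mRNA regions were counted where the summit lay on exactly 1 canonical mRNA, the stop codon belonging to the CDS. All 24 chromosomes were found in the reference, and 13 and 12 peaks on unplaced scaffolds, none of them wide, had no gene. Peaks were shared at an overlap of 1 bp or more. Genes were named by rule: the 10 with the widest peaks and the 5 with the most wide peaks, listed genes with a wide peak in both replicates, the 3 widest unmatched peaks per replicate and the peaks next to the limit. Exons covered end to end, noncoding genes, intronic peaks, peaks rich in repeats and listed genes without a wide peak were named after their values had been seen. The members, lists and rules were chosen with earlier results of these data known. The scripts were tested on simulated peaks. Scripts ran in Python 3.11.15 with pandas 2.3.3, numpy 2.4.6 and matplotlib 3.10.9. The result for 1 listed gene is not reported here.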

Additional observations from a re-analysis of the deposited data

How the results depend on the processing

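Of 23 alternatives other than leaving out a replicate, 8 stayed within the set limits (1.5 times for counts, 1 SD between replicates for shares) and 15 moved beyond them. The mean number of wide peaks was 1250 with a limit of 750 bp, 340 with 1500 bp and 184 with a q of at most 0.05, and 641 to 843 on leaving out a replicate. Genes with a wide peak in both replicates numbered 633 with a limit of 750 bp and 186 with 1500 bp. The share of wide peaks that met a wide peak of the other replicate was 49.3% when the overlap had to cover at least 50 percent of both peaks, and 53.3% to 69.7% on leaving out a replicate. The bases covered by the other replicate fell to 22.3% when its peaks had to reach a q of 0.05, and were 73.5% to 83.8% on leaving out a replicate. The share lying in 1 exon was 91.7% with 750 bp, 92.4% with 1500 bp, 80.7% when all bases had to lie in it and 87.9% with canonical exons only, and 91.9% to 92.2% on leaving out a replicate. The CDS share was 30.4% with 750 bp, 32.8% with 1500 bp, 31.9% with the transcript of longest CDS and 41.7% (37.3% and 46.2%) where q was limited to 0.05, and 29.9% to 30.1% on leaving out a replicate. The cause of these moves was not tested. Joining peaks across gaps of up to 50 bp changed nothing, since the smallest gap in the lists was 143 bp. No paired analysis was possible because no result came from a test between groups and input values were not analysed here. With 2 replicates and unknown depth, no difference was tested over samples.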
